A study of Mus musculus with 12 samples.

Results

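The integrated stress response and the unfolded protein response are the main transcriptional answers of a cell to a lack of amino acids or to unfolded protein in the endoplasmic reticulum (ER). The genes described here are 38 genes of these responses, taken by symbol from a list of their sensors, transcription factors and targets. All 38 are among the 17416 genes listed in both deposited expression tables. They fall into 3 sensors, 5 transcription factors, 6 feedback and effector genes, 9 amino acid genes of the ATF4 programme, 11 ER chaperone genes and 4 genes of ER-associated degradation.

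As background, the integrated stress response begins when a kinase phosphorylates the initiation factor eIF2, which lowers general translation and favours translation of ATF4. ATF4 then drives genes of amino acid synthesis and transport, and also Ddit3, Trib3 and Chac1. The unfolded protein response adds the sensors IRE1 (gene Ern1), whose RNase splices the Xbp1 mRNA, and ATF6, which together drive the chaperones and the degradation machinery of the ER, while PERK (gene Eif2ak3) is the sensor that feeds into eIF2. In neurons these pathways are known from axon injury and diseases of protein misfolding. Much of the control of ATF4, XBP1 and ATF6 is through translation, splicing and protein cleavage, which gene-level mRNA values do not show.

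Gene expression was measured by sequencing of oligo-dT-enriched mRNA from primary neurons of C57BL/6 mice, collected on day 10 of a treatment, in 4 groups of 3 libraries. One model over-expressed H-Ras(G12V), the mutant of the GTPase H-Ras that stays switched on, from an adeno-associated virus (AAV), and its control libraries are those of mCherry, a red fluorescent protein. The other model exposed the neurons to etoposide, which traps topoisomerase II on DNA and leaves breaks, with the solvent DMSO as its control. The study uses them as models of oncogene-induced and stress-induced senescence, to find the pathways both share. The labels name no promoter or serotype of the virus, no etoposide dose, no sex and no age of the animals. Whether the 3 libraries of a group are separate cultures is not stated, so the p-values measure the spread between libraries alone, and this may be technical.

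For the 6 libraries of the etoposide model the submitters' labels disagree: title and library name give one group, and the treatment tag gives the other. The groups here follow the titles, as do the names of the deposited columns, and every direction for etoposide holds for the libraries so titled. The libraries held 11829 to 12728 genes at 1 FPKM or more. FPKM is a fragment count corrected for transcript length and library total, and the tables give no counts, so depth is unknown and no counting interval is given. Hras itself had 38.41, 51.63 and 33.46 FPKM in the H-Ras(G12V) libraries, against 45.94, 42.98 and 44.20 FPKM in the mCherry libraries, so the mouse gene's value does not mark the H-Ras(G12V) libraries, and the labels do not give the species of the delivered sequence.

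Single libraries stood apart from their groups, and this bears on every result below. Across the genes tested, the rank correlation of etoposide library 3 was 0.811 with etoposide library 1 and 0.881 with etoposide library 2, but 0.931 to 0.979 with libraries of DMSO. It nevertheless shared with them a low level of Sox10, a transcription factor of the oligodendrocyte lineage, at 0.09, 0.14 and 0.01 FPKM in etoposide libraries 1, 2 and 3, against 25.09, 18.81 and 25.35 FPKM in DMSO. DMSO libraries 1 and 2 correlated at 0.986 with each other, and DMSO library 3 at 0.956 and 0.943 with them. For mCherry, the pair 1 and 2 correlated at 0.997, and library 3 at 0.929 and 0.925 with that pair.

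The cultures held other cell types besides neurons. The 8 neuronal markers summed to 1094 to 1277 FPKM in H-Ras(G12V) libraries, against 1580 to 2094 FPKM in mCherry libraries, and to 586, 1222 and 2159 FPKM in etoposide libraries 1, 2 and 3, against 1507 to 1876 FPKM in DMSO. The 8 astrocyte markers summed to 2552 to 3696 FPKM with H-Ras(G12V), against 1184, 1192 and 3107 FPKM with mCherry, and to 610 to 959 FPKM with etoposide, against 1012 to 1571 FPKM with DMSO. The 8 neural progenitor markers summed to 1658 to 2085 FPKM with H-Ras(G12V), against 588 to 721 FPKM with mCherry. They summed to 872, 474 and 235 FPKM in etoposide libraries 1, 2 and 3, against 255 to 312 FPKM in DMSO. The 8 oligodendrocyte lineage markers summed to 829 to 1021 FPKM with H-Ras(G12V), against 267, 204 and 703 FPKM with mCherry, and to 100, 64.8 and 209 FPKM with etoposide, against 507 to 875 FPKM with DMSO. The 8 fibroblast, meningeal and mural markers summed to 36.72 to 40.01 FPKM with H-Ras(G12V), against 155 to 229 FPKM with mCherry. They summed to 341, 71.7 and 239 FPKM in etoposide libraries 1, 2 and 3, against 124, 354 and 86.9 FPKM in DMSO. The sums of the neuronal, progenitor, oligodendrocyte and fibroblast lists did not overlap between H-Ras(G12V) and mCherry, and those of the astrocyte and oligodendrocyte lists did not overlap between etoposide and DMSO. Of these 5 lists, 1 marker was at 0 in 1 library, a fibroblast, meningeal or mural marker in etoposide library 2. Microglial and endothelial markers were low throughout, summing to at most 35.9 and 5.40 FPKM in any library. In bulk mRNA, fewer cells of a type and less RNA per cell cannot be told apart, and the part of these shifts in cell type markers in the results below was not tested.

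The promoters of several members carry the sequence elements for which these responses are known, and they are shown because these are the letters through which ATF6 and ATF4 are known to read ER stress and amino acid shortage. RefSeq windows of 300 bases (250 before to 50 after a gene's start, build GRCm38.p6, which is a later build than the mm9 named for the expression tables) were at hand for 33 of the 38 members. The ER stress element (ERSE, which is CCAAT, then 9 bases of any kind, then CCACG, on either strand), bound by ATF6 with NF-Y, was present in the windows of 7 of these 33 genes (21.2%), against 37 of 27025 genes in all (0.137%). The 7 were 6 ER chaperone genes, Hspa5, Hsp90b1, Dnajc3, Pdia6, Calr and Creld2, and the ubiquitin ligase gene Syvn1. The related ERSE-II (ATTGG and CCACG with 1 base between them) was present in Herpud1 and in 12 genes in all (0.0444%). The members were listed as genes of these responses, so a share above that of all genes is background and not a result of these data. The same holds for the ATF4 element below. Examples follow 5′ to 3′ on the gene's strand with the match in capitals, the first from chr2:34772000-34772068 (plus strand), then chr14:118937802-118937870 (plus), chr12:17266466-17266534 (plus), chr8:84847050-84847118 (minus), chr15:88819495-88819563 (plus) and, for Herpud1, chr8:94386352-94386412 (plus). In Calr and Creld2 the match is on the opposite strand.
Hspa5: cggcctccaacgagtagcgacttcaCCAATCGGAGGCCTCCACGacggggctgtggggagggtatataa
Dnajc3: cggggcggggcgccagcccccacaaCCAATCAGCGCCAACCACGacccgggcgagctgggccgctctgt
Pdia6: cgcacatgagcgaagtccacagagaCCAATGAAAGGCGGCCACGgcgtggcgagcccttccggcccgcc
Calr: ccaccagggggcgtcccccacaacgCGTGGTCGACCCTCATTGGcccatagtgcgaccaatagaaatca
Creld2: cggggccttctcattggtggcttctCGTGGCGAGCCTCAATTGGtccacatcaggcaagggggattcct
Herpud1: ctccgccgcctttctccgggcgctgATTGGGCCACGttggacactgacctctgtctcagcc

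The ATF4 element was searched as TGATGNAA on either strand, and was present in 6 of the 33 windows (18.2%), against 1219 of 27025 genes (4.51%). The 6 genes were Nupr1, Trib3, Chac1, Vldlr, Asns and Herpud1, so of the amino acid genes with a window it was found in Asns. The examples lie at chr6:7693210-7693257 (minus strand) for Asns, chr2:119351024-119351081 (plus) for Chac1 and chr7:126625548-126625605 (minus) for Nupr1. In Chac1 and Nupr1 the match is on the opposite strand. A match is a run of letters and not a measured binding site.
Asns: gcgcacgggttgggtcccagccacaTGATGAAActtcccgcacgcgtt
Chac1: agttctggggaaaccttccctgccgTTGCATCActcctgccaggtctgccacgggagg
Nupr1: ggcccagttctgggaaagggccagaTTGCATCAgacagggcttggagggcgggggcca

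With H-Ras(G12V), 14 of the 38 genes rose and none fell against mCherry. Genes of serine and one-carbon synthesis (Shmt2, Phgdh, Psat1), the amino acid transporter Slc7a5 and the ER chaperone genes Sdf2l1, Pdia4 and Hspa5 were among them. By limma's moderated test over all genes, adjusted by Benjamini-Hochberg and called at 0.05, 17% of the 12724 genes tested passed, 10.3% higher and 6.67% lower. The median log2 fold change was 0.47 over the 38 genes and 0.05 over all genes tested, on the log2(FPKM + 1) scale used for all log2 values here. At an unadjusted p under 0.05, 23 of the 38 passed, all of them higher, against 20.4% of all genes that were higher at that level. All 3 H-Ras(G12V) libraries lay above all 3 mCherry libraries for 22 genes and below them for none, against 23.7% and 16.6% of all genes tested.

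The count depended on single libraries. Without mCherry library 3, 25 genes were higher and 1 lower (all genes tested, 25.4% and 19.5%). Without H-Ras(G12V) library 1, 2 or 3 the counts were 3, 8 and 4, and without mCherry library 1 or 2 they were 4 and 4. Calls over all genes were also fewer there than the 1312 of 12724 higher with all libraries. They were 301 of 12711, 652 of 12703 and 431 of 12695 higher without H-Ras(G12V) library 1, 2 or 3. Without mCherry library 1 or 2 they were 390 of 12725 and 379 of 12735 higher. With mCherry libraries 1 and 2 averaged into 1, a setting chosen after the values were seen because they were nearly alike, 4 genes passed (all genes, 3.08% higher). Phgdh, Shmt2 and Sdf2l1 passed without each of the 6 libraries in turn, Slc7a5 without 5 of the 6, and the other 10 without only 1 or 2 of the 6. After scaling the libraries to a common sum 8 genes passed, and after median-of-ratios scaling 9, all of them higher. Over all genes, 856 of 12721 and 1046 of 12719 were higher in these 2 fits. A single fit of the 12 libraries takes the spread from all 4 groups. In it none of the 38 passed (lowest limma adjusted p = 0.0963, for Sdf2l1), while 3.92% of all genes did. There 10 of the 38 had an unadjusted p under 0.05, all higher, against 11.4% of all genes that were higher at that level.

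**Figure D1:**
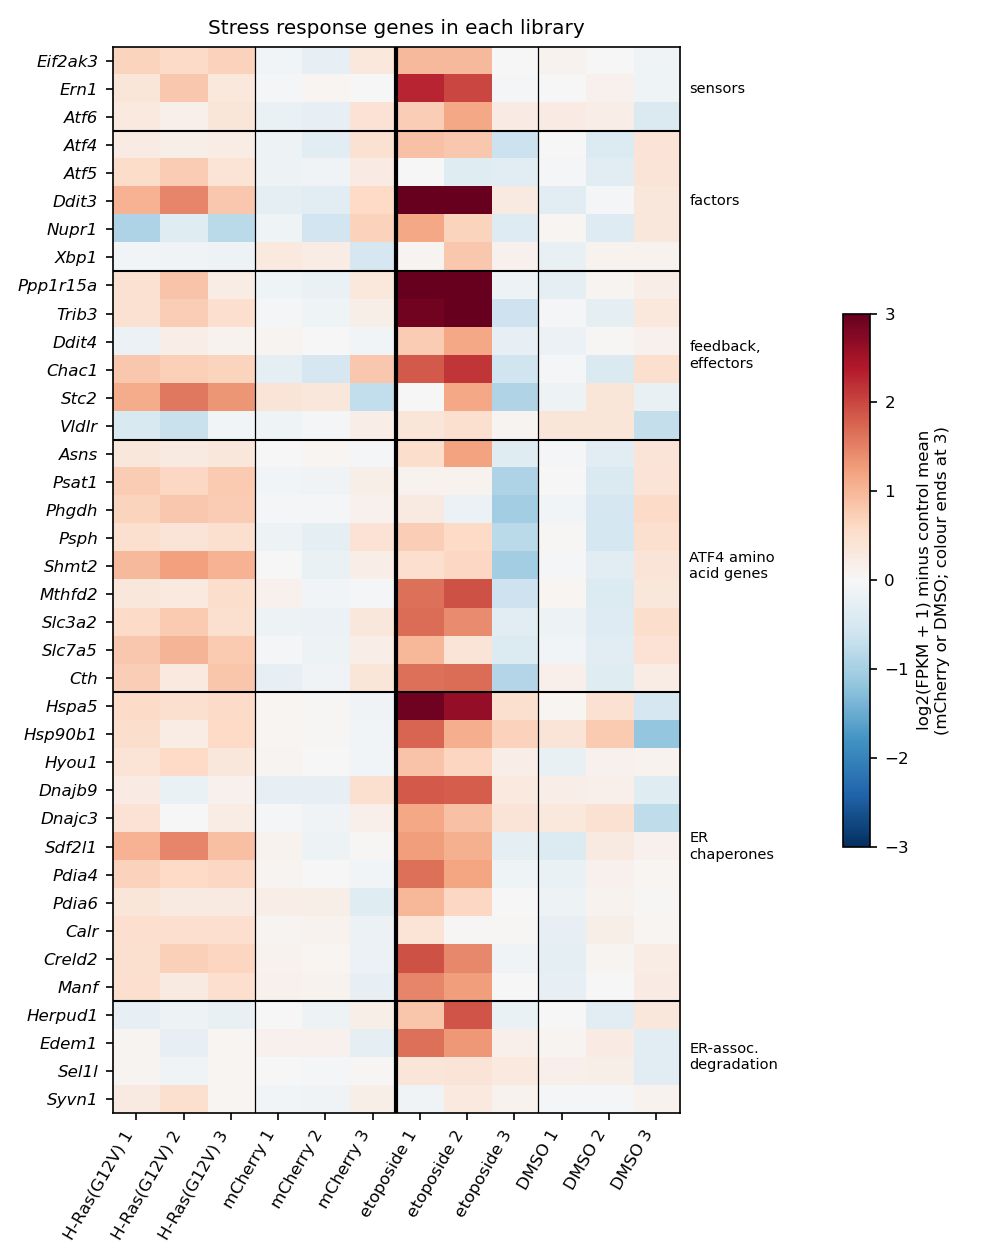
Level of each of the 38 genes (rows, by role) in each of the 12 libraries (columns), as the difference in log2(FPKM + 1) from the mean of the 3 control libraries of the same table, mCherry on the left of the thick line and DMSO on the right of it. Colour ends at 3, which Ddit3 and Ppp1r15a pass in etoposide libraries 1 and 2 and Trib3 in etoposide library 2. The H-Ras(G12V) libraries have medians of 0.47, 0.47 and 0.48 over the 38 genes, and etoposide libraries 1, 2 and 3 have medians of 1.00, 1.12 and -0.14.

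The amino acid genes of the ATF4 programme were all on the higher side with H-Ras(G12V). All 9 had a positive log2 fold change, against 7057 of all 12724 genes tested, and their median was 0.63. Of the 9, 4 rose, where 10.3% of all genes were higher. Shmt2, the mitochondrial enzyme that turns serine into glycine, had 40.42, 48.39 and 42.42 FPKM in H-Ras(G12V) libraries, against 20.08, 17.18 and 23.01 FPKM in mCherry libraries. Every H-Ras(G12V) library lay above every mCherry library, and the log2 fold change was 1.09 ± 0.14 (SE, limma adjusted p = 0.00590). Phgdh, the first enzyme of serine synthesis, had 126.78, 140.48 and 136.02 FPKM with H-Ras(G12V), against 75.71, 76.69 and 86.31 FPKM with mCherry. Its groups were also fully apart, with a log2 fold change of 0.75 ± 0.11 (SE, limma adjusted p = 0.00887). Psat1, the next enzyme of that path, averaged 144 ± 9.28 FPKM with H-Ras(G12V) and 87.7 ± 9.90 FPKM with mCherry (SD, n = 3 each, limma adjusted p = 0.0140). Slc7a5, the light chain of the large neutral amino acid exchanger LAT1, averaged 124 ± 11.3 FPKM with H-Ras(G12V) and 67.6 ± 8.94 FPKM with mCherry (limma adjusted p = 0.0106).

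The other 5 amino acid genes did not pass. Slc3a2, the heavy chain that pairs with Slc7a5, had a log2 fold change of 0.61 (limma adjusted p = 0.0544) and Asns, asparagine synthetase, one of 0.32 (0.0769). Mthfd2, a mitochondrial folate enzyme, was at 0.39 (0.0704), Cth, which makes cysteine from cystathionine, at 0.63 (0.0921) and Psph, the last enzyme of serine synthesis, at 0.45 (0.147). Without mCherry library 3 all 9 passed, all of them higher, where 25.4% of all genes tested were higher. With all libraries, the H-Ras(G12V) values lay fully above mCherry for 7 of the 9, against 23.7% of all genes tested. The exceptions were Psph and Cth, whose mCherry library 3 read 40.51 and 5.04 FPKM, inside the span of the H-Ras(G12V) libraries.

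The ER chaperone genes also lay on the higher side with H-Ras(G12V), with a median log2 fold change of 0.45. All 11 had a positive log2 fold change, against 7057 of all 12724 genes tested. Of the 11, 6 passed, where 10.3% of all genes were higher. After scaling to a common sum 3 of the 11 passed, and after median-of-ratios scaling 4, all of them higher. Over all genes, 856 of 12721 and 1046 of 12719 were higher in these 2 fits. Hspa5, Calr and Hyou1 did not pass with a common sum (limma adjusted p = 0.0505, 0.0833 and 0.0975). Sdf2l1, a subunit of the ER chaperone complex around BiP, had 20.78, 28.14 and 18.94 FPKM with H-Ras(G12V), against 10.42, 8.58 and 9.89 FPKM with mCherry. No library of one group reached the other, and the log2 fold change was 1.14 ± 0.17 (SE, limma adjusted p = 0.00886). Hspa5, which encodes BiP, the Hsp70 of the ER and the usual gauge of the unfolded protein response, had 306.46, 286.20 and 306.55 FPKM with H-Ras(G12V), against 214.26, 212.24 and 192.88 FPKM with mCherry. The 2 groups were apart and narrow, with a ratio of means of 1.45 and a log2 fold change of 0.54 ± 0.11 (SE, limma adjusted p = 0.0220).

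The disulfide isomerase gene Pdia4 averaged 78.7 ± 2.81 FPKM with H-Ras(G12V) and 50.4 ± 2.53 FPKM with mCherry (SD, n = 3 each, limma adjusted p = 0.0114). Calr, the calcium-binding lectin chaperone calreticulin and the most highly expressed of the 38 in these 6 libraries, averaged 523 ± 2.75 FPKM with H-Ras(G12V) and 370 ± 39.7 FPKM with mCherry (limma adjusted p = 0.0375). Creld2, a secreted ER stress protein, rose by 0.61 (limma adjusted p = 0.0239) and Hyou1, a large Hsp70-like nucleotide exchange factor of BiP, by 0.45 (0.0423), both on the log2 scale. The 5 that did not pass ran from 0.06 for Dnajb9, an ER co-chaperone driven by XBP1, to 0.45 for Hsp90b1, the Hsp90 of the ER (limma adjusted p = 0.893 and 0.0618). For 9 of the 11 genes all H-Ras(G12V) libraries lay above all mCherry libraries, against 23.7% of all genes tested. For Dnajb9 and Dnajc3, a co-chaperone that also inhibits PERK, the groups overlapped.

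Among the sensors, Eif2ak3 rose, with 15.12, 13.99 and 15.45 FPKM with H-Ras(G12V), against 8.54, 7.60 and 11.72 FPKM with mCherry (log2 fold change 0.64 ± 0.17 SE, limma adjusted p = 0.0416). Its groups were apart, with mCherry library 3 the nearest to the H-Ras(G12V) libraries. Ern1 stood at 2.05, 3.17 and 1.97 FPKM with H-Ras(G12V), against 1.30, 1.47 and 1.39 FPKM with mCherry, and did not pass (limma adjusted p = 0.0933). Atf6 overlapped between the groups (limma adjusted p = 0.379).

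The transcription factors did not move as 1 group. Ddit3, which encodes CHOP, had 32.72, 44.44 and 27.92 FPKM with H-Ras(G12V), against 12.53, 12.22 and 24.03 FPKM with mCherry, a ratio of means of 2.15 and a log2 fold change of 1.10 ± 0.29 (SE, limma adjusted p = 0.0422). The groups were apart, with mCherry library 3 the nearest to the lowest H-Ras(G12V) library. Atf5, an ATF4 relative and target, averaged 32.9 ± 4.23 FPKM with H-Ras(G12V) and 21.8 ± 3.55 FPKM with mCherry (SD, n = 3 each, limma adjusted p = 0.0474). The Atf4 mRNA itself had 174.09, 166.15 and 170.89 FPKM with H-Ras(G12V), against 132.80, 118.52 and 201.01 FPKM with mCherry. The H-Ras(G12V) libraries lay between the mCherry libraries, 2 of which were lower and 1 higher (limma adjusted p = 0.488).

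Nupr1, a small stress-induced chromatin protein, and Xbp1 had negative log2 fold changes, of -0.69 and -0.11, and neither passed (limma adjusted p = 0.181 and 0.748). Nupr1 had 11.98, 18.14 and 13.10 FPKM with H-Ras(G12V), against 21.48, 15.48 and 38.79 FPKM with mCherry, with H-Ras(G12V) library 2 above mCherry library 2. Xbp1 had 37.02, 36.75 and 35.55 FPKM with H-Ras(G12V), against 48.38, 46.20 and 27.42 FPKM with mCherry. It lay below mCherry libraries 1 and 2 and above mCherry library 3, and without that library it was the 1 gene called lower (log2 fold change -0.37, limma adjusted p = 0.0154).

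Of the feedback and effector genes, Stc2 rose with H-Ras(G12V). Stc2, a secreted glycoprotein of calcium and phosphate handling induced through PERK and ATF4, had 8.87, 12.58 and 10.51 FPKM with H-Ras(G12V), against 4.98, 4.81 and 1.73 FPKM with mCherry (log2 fold change 1.34 ± 0.32 SE, limma adjusted p = 0.0320). All H-Ras(G12V) libraries were higher, and mCherry library 3 was the lowest of the 6. Trib3, a pseudokinase that restrains ATF4, was scarce at 1.44, 1.93 and 1.52 FPKM with H-Ras(G12V), against 0.73, 0.61 and 0.99 FPKM with mCherry, and did not pass (limma adjusted p = 0.0514). Ppp1r15a, the phosphatase subunit GADD34 that reverses eIF2 phosphorylation, Chac1, which degrades glutathione, and Ddit4, an inhibitor of mTORC1, had log2 fold changes of 0.52, 0.73 and 0.04 (limma adjusted p = 0.138, 0.166 and 0.879). Chac1 had 13.74, 12.82 and 12.30 FPKM with H-Ras(G12V), against 5.79, 4.88 and 13.77 FPKM with mCherry. Its 3 H-Ras(G12V) libraries were close to each other, and mCherry library 3 was the highest of the 6 while libraries 1 and 2 were the lowest. Vldlr, a lipoprotein and reelin receptor induced by ATF4, was at -0.40 (limma adjusted p = 0.162).

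The 4 genes of ER-associated degradation did not pass with H-Ras(G12V). Herpud1, which gathers the degradation complex, Edem1, which picks misfolded glycoproteins, and Sel1l and Syvn1, the adaptor and the ubiquitin ligase at its core, had log2 fold changes between -0.21 and 0.27. Their 95% intervals ended at 0.62 or lower, and Sel1l had 33.84, 29.56 and 33.47 FPKM with H-Ras(G12V), against 31.85, 31.27 and 32.47 FPKM with mCherry. The 2 groups overlapped for all 4 genes.

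**Figure D2:**
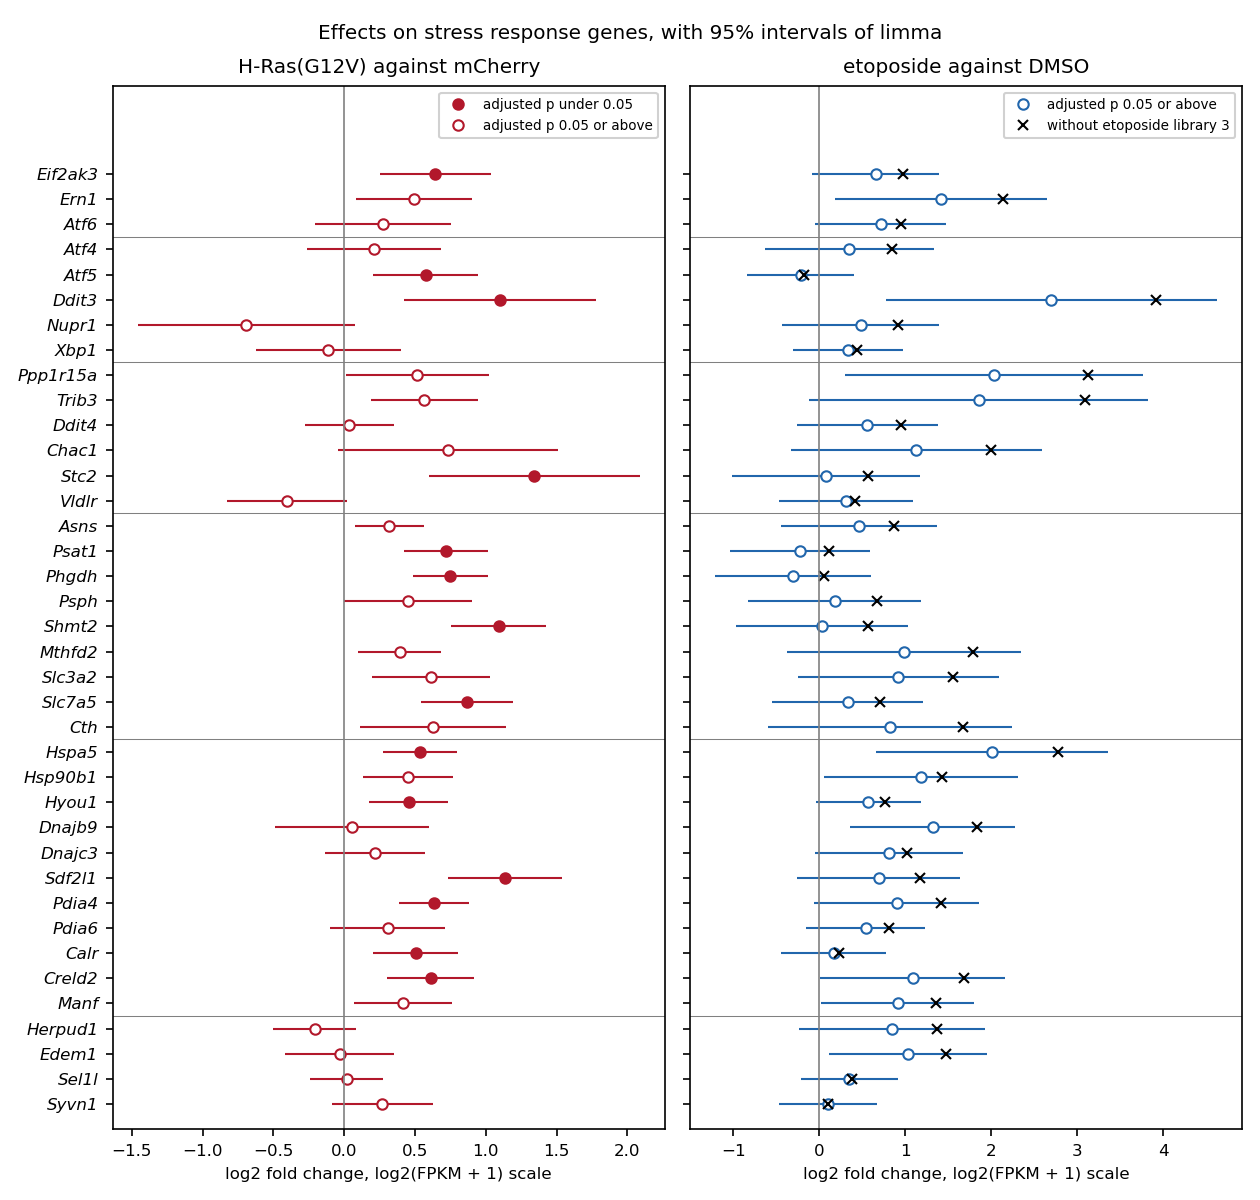
Log2 fold changes of the 38 genes with 95% intervals of limma, H-Ras(G12V) against mCherry on the left and etoposide against DMSO on the right, in rows by role and on the log2(FPKM + 1) scale. Filled points passed an adjusted p of 0.05, which 14 genes did on the left and none on the right, and crosses give the etoposide value without etoposide library 3, at which 22 genes passed.

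With etoposide the 3 libraries did not behave alike, and none of the 38 genes passed. Etoposide libraries 1 and 2 had the highest levels of Ddit3, Trib3, Ppp1r15a, Hspa5 and Ern1 among the 6 libraries of this model. Etoposide library 3 lay within the DMSO range for Ddit3, Ppp1r15a and Ern1, below it for Trib3 and just above it for Hspa5. By limma over all 12371 genes tested, 0.453% passed, 0% higher and 0.453% lower. The adjusted p of the 38 ran from 0.348 to 0.977, and 9 genes had an unadjusted p under 0.05, all of them higher, against 7.42% of all genes that were higher at that level. In all, 35 of the 38 log2 fold changes were positive, against 7047 of all 12371 genes tested. The median was 0.67 over the 38 genes and 0.09 over all genes. After scaling to a common sum, 33 of the 38 and 6151 of 12377 genes were positive. For 5 genes (Atf6, Hspa5, Hyou1, Dnajb9 and Sel1l) all 3 etoposide libraries lay above all 3 DMSO libraries and for none below, while 7.64% and 8.17% of all genes did so.

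Without etoposide library 3, 22 of the 38 genes rose and none fell, where 18.4% of all genes tested were higher. With DMSO library 3 left out as well, which was chosen after the values were seen, 28 genes rose, where 22.2% of all genes were higher. Without any other single library the count was 0, and the calls in the rest of the account of etoposide come from the fit without etoposide library 3 unless stated. That fit sets 2 libraries against 3. Its use as the basis here was a choice made with the values known, and its adjusted p-values make no allowance for that. With all 3 etoposide libraries none of the 38 genes passed.

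All 3 sensors rose in it, where 18.4% of all genes were higher. Ern1 had 10.35, 8.36 and 1.28 FPKM in etoposide libraries 1, 2 and 3, against 1.34, 1.55 and 1.16 FPKM in DMSO, so that library 3 lay within the DMSO range (log2 fold change 2.14, limma adjusted p = 0.000467 without it). Eif2ak3 had 20.36, 20.15 and 9.92 FPKM with etoposide, against 10.68, 9.76 and 9.07 FPKM with DMSO (0.97, limma adjusted p = 0.0144 without library 3). Atf6 had 11.86, 16.29 and 8.19 FPKM with etoposide, against 8.14, 7.85 and 4.71 FPKM with DMSO (0.95, limma adjusted p = 0.0382 without library 3). For Eif2ak3 too, library 3 lay within the DMSO range, and for Atf6 it lay just above it.

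Ddit3 and the genes that act back on eIF2 and ATF4 had the widest differences. Ddit3 had 454.79, 556.85 and 39.13 FPKM in etoposide libraries 1, 2 and 3, against 25.98, 31.55 and 41.57 FPKM in DMSO. Libraries 1 and 2 were more than 10 times as high as any DMSO library, and library 3 was inside the DMSO range (log2 fold change 3.91, limma adjusted p = 3.92e-05 without it). Ppp1r15a had 149.16, 140.09 and 14.09 FPKM with etoposide, against 12.68, 16.70 and 18.26 FPKM with DMSO (3.12, limma adjusted p = 7.99e-05 without library 3). Trib3 had 34.21, 44.73 and 2.07 FPKM with etoposide, against 3.57, 2.91 and 4.90 FPKM with DMSO. Here library 3 was the lowest of the 6, while libraries 1 and 2 were the highest (3.09, limma adjusted p = 0.000148 without library 3). Chac1 had 87.05, 106.69 and 15.04 FPKM with etoposide, against 22.75, 17.11 and 32.95 FPKM with DMSO, with the same order of libraries (1.99, limma adjusted p = 0.00144 without library 3).

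Ddit4 and Nupr1 rose by 0.95 and 0.91 on the log2 scale without library 3 (limma adjusted p = 0.0179 and 0.0374). Atf4 mRNA had 415.25, 394.20 and 144.82 FPKM with etoposide, against 225.23, 170.05 and 299.55 FPKM with DMSO, and came close to the threshold without library 3 (0.84, limma adjusted p = 0.0510). Atf5, which rose with H-Ras(G12V), had 83.82, 64.09 and 66.54 FPKM with etoposide, against 78.97, 66.08 and 108.84 FPKM with DMSO, and its groups overlapped (-0.17, limma adjusted p = 0.663). Xbp1, Stc2 and Vldlr did not pass (limma adjusted p = 0.252, 0.259 and 0.379).

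**Figure D3:**
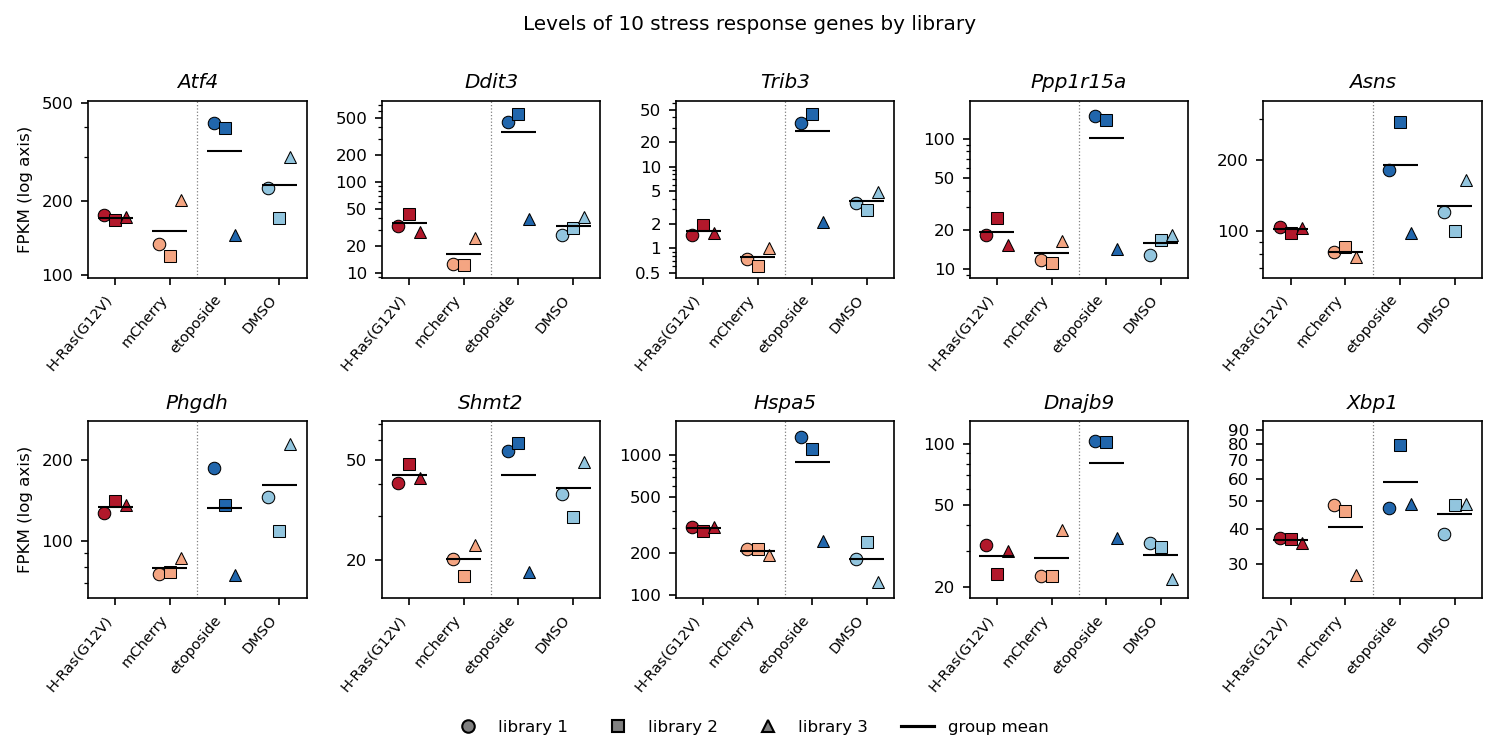
FPKM of 10 of the genes in each library on log axes, with H-Ras(G12V) left of mCherry, etoposide left of DMSO, circles, squares and triangles for libraries 1, 2 and 3, and a line at each group mean. Etoposide libraries 1 and 2 stand far above the rest for Ddit3, Trib3, Ppp1r15a and Hspa5, where etoposide library 3 had 39.13, 2.07, 14.09 and 244.93 FPKM. Levels in the left and right pairs come from tables normalised separately.

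The amino acid genes split with etoposide. Mthfd2, Slc3a2 and Cth rose without library 3, while Phgdh and Psat1, the genes of the first steps of serine synthesis, stayed close to DMSO. Mthfd2 had 97.49, 116.71 and 19.26 FPKM with etoposide, against 31.49, 22.58 and 38.68 FPKM with DMSO (log2 fold change 1.79, limma adjusted p = 0.00171). Slc3a2 had 616.19, 515.12 and 149.87 FPKM with etoposide, against 173.08, 146.79 and 275.68 FPKM with DMSO (1.55, limma adjusted p = 0.00577), and Cth gave 1.67 (limma adjusted p = 0.00223). In all 3, libraries 1 and 2 lay above every DMSO library, and library 3 below the DMSO mean.

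Phgdh had 186.98, 136.50 and 74.61 FPKM with etoposide, against 145.53, 109.07 and 229.21 FPKM with DMSO. Libraries 1 and 2 lay within the DMSO range and library 3 below it, and without library 3 the log2 fold change was 0.05 (limma adjusted p = 0.919). Psat1 was at 0.11 (limma adjusted p = 0.790), Shmt2 at 0.57 (0.130), Psph at 0.67 (0.116), Slc7a5 at 0.70 (0.110) and Asns at 0.87 (0.0527). Asns had 182.84, 291.23 and 98.25 FPKM with etoposide, against 120.16, 100.46 and 164.79 FPKM with DMSO. Slc7a5 had 347.22, 226.10 and 129.74 FPKM with etoposide, against 163.32, 134.79 and 231.97 FPKM with DMSO. For Asns libraries 1 and 2 were above all DMSO libraries, for Slc7a5 library 1 was, and for both library 3 was the lowest of the 6. The genes with the clearest rise under H-Ras(G12V) among the 9, Shmt2, Phgdh, Slc7a5 and Psat1, were not among the 3 called with etoposide. With DMSO library 3 also left out, Shmt2, Slc7a5, Psph and Asns passed as well.

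Etoposide library 3 was low for this group as a whole. Of the 9 amino acid genes, 0 lay above the DMSO mean in it, with a median difference of -0.82 on the log2 scale, and Phgdh and Shmt2 stood at 0.463 of the DMSO mean each. In the same library 7 of the 11 chaperone genes lay above the DMSO mean, with a median of 0.03. In DMSO library 3 all 9 amino acid genes lay above the DMSO mean (median 0.40), and 7 of the 11 chaperone genes did (median 0.06). Among these chaperone genes it had the lowest DMSO values of Hspa5, Hsp90b1, Dnajb9 and Dnajc3, at 123.67, 59.67, 21.82 and 5.61 FPKM. It had the highest of Manf and Creld2, at 198.89 and 16.36 FPKM.

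Of the ER chaperone genes, the longest of the lists by role, 8 of 11 rose, where 18.4% of all genes were higher. Hspa5 had 1334.59, 1103.03 and 244.93 FPKM with etoposide, against 183.06, 241.58 and 123.67 FPKM with DMSO. All 3 etoposide libraries lay above DMSO, library 3 by a small margin, and the log2 fold change was 2.01 ± 0.60 (SE, limma adjusted p = 0.348) with all libraries and 2.78 (0.000427) without library 3. Dnajb9 had 103.55, 101.93 and 34.72 FPKM with etoposide, against 32.75, 31.32 and 21.82 FPKM with DMSO, again with no overlap (1.83, limma adjusted p = 0.00108 without library 3). Creld2 had 55.28, 39.87 and 13.03 FPKM with etoposide, against 11.30, 14.74 and 16.36 FPKM with DMSO (1.68, limma adjusted p = 0.00200 without library 3), and here library 3 fell inside the DMSO range.

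Without library 3, Pdia4, Manf, Sdf2l1, Pdia6 and Hyou1 also rose, by 1.42, 1.36, 1.17, 0.81 and 0.76 on the log2 scale (limma adjusted p = 0.00334, 0.00463, 0.0119, 0.0314 and 0.0370). Etoposide library 3 lay within the DMSO range for Pdia4, Manf, Sdf2l1 and Pdia6, and just above it for Hyou1. Manf is a secreted ER stress protein known as a neurotrophic factor. Hsp90b1 and Dnajc3 were at 1.42 and 1.02 and narrowly missed the threshold (limma adjusted p = 0.0531 and 0.0582). Calr had 472.74, 365.49 and 361.00 FPKM with etoposide, against 298.18, 400.38 and 370.91 FPKM with DMSO. It was called with H-Ras(G12V), and with etoposide its groups overlapped (0.23, limma adjusted p = 0.542 without library 3).

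In ER-associated degradation, Edem1 and Herpud1 rose and Sel1l and Syvn1 did not pass. Edem1 had 19.04, 14.75 and 6.11 FPKM with etoposide, against 5.77, 6.63 and 4.11 FPKM with DMSO (1.47, limma adjusted p = 0.00479). Herpud1 had 55.71, 117.03 and 26.53 FPKM with etoposide, against 30.64, 23.95 and 39.41 FPKM with DMSO (1.37, limma adjusted p = 0.0151). For both genes libraries 1 and 2 lay above all DMSO libraries and library 3 among them. Syvn1, whose promoter window also holds an ERSE, had a log2 fold change of 0.10 (limma adjusted p = 0.799).

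**Figure D4:**
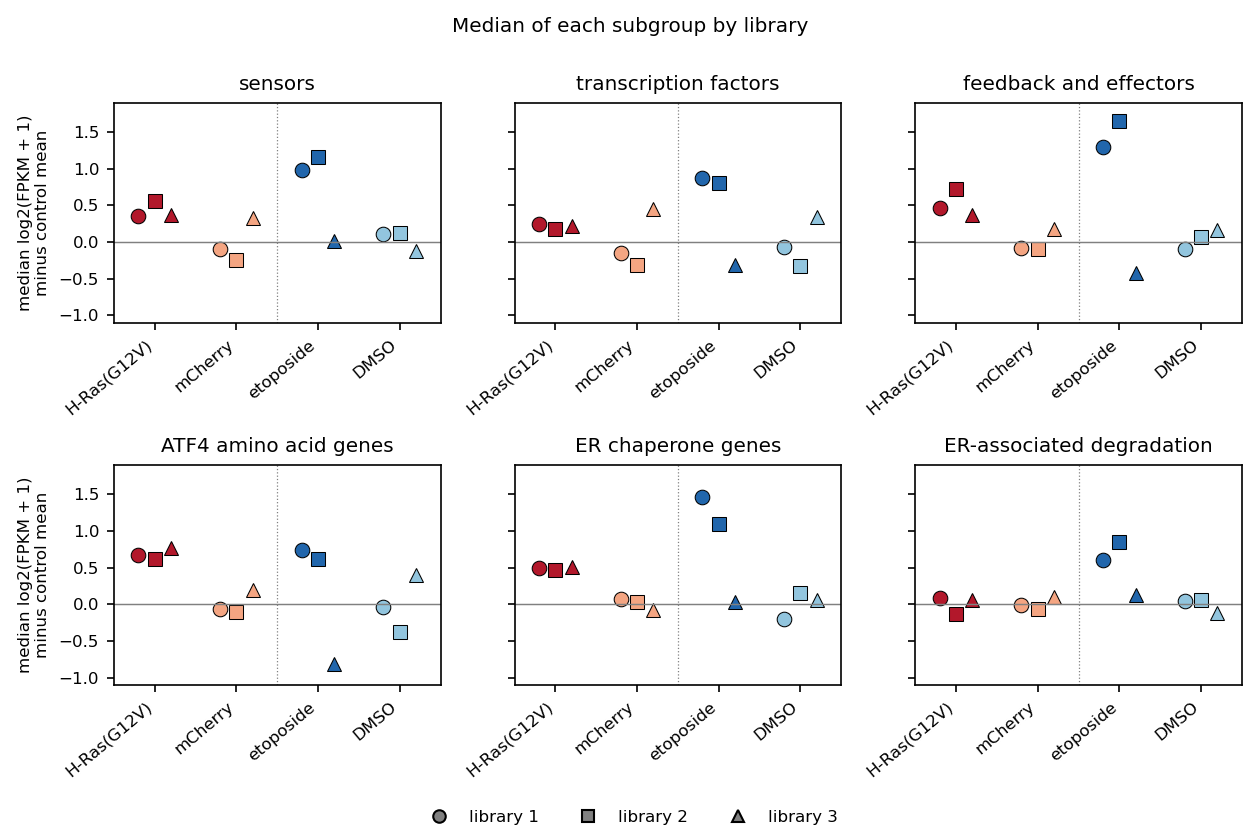
Median over the genes of each role of the difference in log2(FPKM + 1) from the mean of the control libraries of the same table, by library, with H-Ras(G12V) left of mCherry and etoposide left of DMSO. For the amino acid genes the etoposide libraries lie at 0.75, 0.62 and -0.82, and for the ER chaperone genes at 1.46, 1.10 and 0.03, while the H-Ras(G12V) libraries lie at 0.67, 0.61 and 0.77 and at 0.49, 0.47 and 0.51.

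The difference between the models was tested over the 12 libraries by subtracting the effect of etoposide from that of H-Ras(G12V). None of the 38 genes passed (limma adjusted p from 0.199 to 0.990), while 3.76% of the 12646 genes tested did, 3.4% higher and 0.356% lower. At an unadjusted p under 0.05 there were 5 genes, of which Atf5, Psat1 and Phgdh were higher and Dnajb9 and Edem1 lower, against 18.3% of all genes at that level, so this count is below the share over all genes. For Phgdh the log2 difference between the effects was 1.06 ± 0.45 (SE), and for Dnajb9 it was -1.26 ± 0.53 (SE), with limma adjusted p of 0.238 and 0.234. Without etoposide library 3, 15 genes were lower and none higher (all genes, 12% lower), so that for these the etoposide effect exceeded the H-Ras(G12V) effect. They included Ddit3 (log2 difference -2.81, limma adjusted p = 0.000986), Ppp1r15a (-2.61, 0.000419), Trib3 (-2.52, 0.000294), Hspa5 (-2.24, 0.000971) and Dnajb9 (-1.77, 0.00473). By role they were 5 of 11 chaperone genes, 3 of 6 feedback and effector genes, 2 of 9 amino acid genes, 2 of 5 transcription factors, 2 of 4 degradation genes and 1 of 3 sensors.

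With mCherry library 3 and DMSO library 3 left out as well, a setting chosen after the values were seen, 21 genes were lower and 1, Atf5, was higher (all genes, 21.4% and 17.4%). Creld2, Ddit3, Eif2ak3, Hspa5, Hyou1, Pdia4 and Sdf2l1 were called higher both with H-Ras(G12V) and with etoposide without library 3. These 7 of 38 were 50% of the 14 and 31.8% of the 22, and the models share no control libraries. Of all 12190 genes tested in both fits, 399 (3.27%) were called higher in both, which were 34.1% of those higher with H-Ras(G12V) and 18.3% of those higher with etoposide. None of the 7 is an amino acid gene, but with DMSO library 3 also left out the shared genes were 9, with Shmt2 and Slc7a5 added (all genes, 3.56%).

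On wider lists of the same pathways, the calls with H-Ras(G12V) were all higher, to be read against the 10.3% of all genes that were higher. There, 5 of 18 further integrated stress response genes rose and none fell, led by Gadd45a, a growth arrest gene (15.2 ± 1.58 FPKM with H-Ras(G12V), 5.44 ± 2.89 FPKM with mCherry), Eif4ebp1, a brake on translation, and Atf3, a stress-induced factor (log2 fold changes 1.41, 1.34 and 1.24). Of 15 further amino acid synthesis and transport genes 4 rose, led by Mthfd1l and Shmt1, enzymes of one-carbon metabolism, and Slc7a3, a transporter of cationic amino acids (1.45, 0.95 and 0.79). Of 28 further ER folding and translocation genes 8 rose, led by Pdia5, Sil1 and Ppib (0.93, 0.73 and 0.70). Of 20 cytosolic aminoacyl-tRNA synthetases, Rars and Sars rose (0.48 and 0.40), and of 22 further degradation and signalling genes, Edem2 rose (0.40), shares that do not exceed that of all genes.

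With etoposide none of these wider lists had a call with all libraries. Without library 3, where 18.4% of all genes were higher, 7 of 18 integrated stress response genes rose, led by Atf3, Gadd45a and Cebpb (log2 fold changes 5.50, 4.51 and 2.60). Atf3 had 238.35, 175.09 and 5.33 FPKM with etoposide, against 2.08, 9.55 and 1.85 FPKM with DMSO, so library 3 lay within the DMSO range. Of the ER folding genes 11 of 28 rose, led by Ero1a, the oxidase that feeds disulfide formation, P4hb and Pdia3 (2.73, 1.30 and 1.23), and of the degradation and signalling genes 6 of 22, led by Creb3l2, Wfs1 and Selenos (1.92, 1.08 and 1.03).

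The amino acid list had 6 of 15 genes higher and 2 lower with etoposide without library 3. Over all 12403 genes tested, 2281 were higher and 1657 lower in that fit, so the 2 lower are near the share over all genes. Slc7a3, Slc7a1 and Pycr1 led the rise (1.69, 1.68 and 1.54), and Got1, an aspartate aminotransferase, and Cbs, which makes cystathionine, fell (-1.07 and -1.01). The tRNA synthetase list had 1 of 20, Cars (1.00), a smaller share than over all genes. With all 12 libraries, 3 wider genes differed between the models, where 3.76% of all genes did, 3.4% higher and 0.356% lower. All 3 are enzymes of the amino acid list with a higher H-Ras(G12V) effect, the direction of most calls over all genes. These were Cbs (log2 difference 1.89, limma adjusted p = 0.0149), Mthfd1l (1.84, 0.00191) and Shmt1 (1.38, 0.0254). Mthfd1l had 9.38, 10.56 and 13.95 FPKM with H-Ras(G12V), against 3.33, 3.37 and 3.61 FPKM with mCherry, and 5.19, 5.50 and 6.38 FPKM with etoposide, against 6.88, 8.63 and 7.66 FPKM with DMSO. The groups were apart in both models, and in opposite directions.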

How the data were processed

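The authors deposited 1 FPKM table per model, with 2 decimals, per the file headers, and HISAT, Bowtie2, RSEM and build mm9 are named in the submitters' processing notes, without versions or roles. The tables were treated as normalised separately, and no read counts were used. All genes whose mean reached 1 FPKM were fitted on the scale log2(FPKM + 1) with limma (version 3.58.1, R 4.3.3, functions lmFit and eBayes with trend), with two-sided tests, Benjamini-Hochberg adjustment over all genes and a threshold of 0.05. All 38 members passed that filter in each fit. Fold changes on this scale understate the change of low genes. The difference between the models was a contrast over the 12 libraries and the genes in both tables. The members and lists were chosen with earlier results of these data known. All members may be named, and of each wider list up to 3 called genes per direction and comparison with the largest log2 fold change. Symbols were taken from the tables. On simulated data, changes of 1 and 2 log2 units were set in genes with a mean log2(FPKM + 1) above 3. Of these, 61% and 89% were recovered for H-Ras(G12V) (12631 genes) and 5% and 43% for etoposide (12256 genes). For the difference between the models, 3% and 57% were recovered (12534 genes). The noise was drawn independently for each gene and library, so libraries that stand apart across genes were not simulated. These shares may not hold for such libraries or for low genes. Alternatives were other pseudocounts, filters and scalings, a replicate block, a single fit of all libraries and leaving out each library. Promoter windows and motifs are from RefSeq, GRCm38.p6, with 5 members having no entry.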

Additional observations from a re-analysis of the deposited data

How the results depend on the processing

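The tables hold no counts, so the precision that depth allows is unknown. With H-Ras(G12V), the count of members called (14, all higher) was 8 after scaling to a common sum, 9 with median-of-ratios scaling and 4 with mCherry libraries 1 and 2 averaged (chosen after seeing the data), all higher. It was 0 in a single fit of the 12 libraries, which takes its spread from all 4 groups. Leaving out 1 library gave 3 to 26 called, 3 to 25 higher and 0 to 1 lower. With etoposide, leaving out 1 library gave 0 to 22, all higher, and 28 without etoposide library 3 and DMSO library 3 (chosen after seeing the data). For the difference between the models, leaving out 1 library gave 0 to 15, all lower, and without all 3 of etoposide, DMSO and mCherry library 3 (chosen after seeing the data) 22 were called, 1 higher and 21 lower. The share of higher calls over all genes with H-Ras(G12V) was 60.7% as deposited (median log2 fold change 0.05). It was 39.1% with a common sum (856 higher and 1332 lower genes, median -0.07) and 49.1% with median-of-ratios scaling (1046 and 1084 genes, median -0.01). Replicate numbers did not pair the libraries. Same-numbered deviations correlated at -0.04, 0.03 and 0.12 between H-Ras(G12V) and mCherry and at -0.26, -0.17 and -0.15 between etoposide and DMSO. The fit with a replicate block called 7 members with H-Ras(G12V), all higher, where 1010 of all 12724 genes were higher. It called 0 in the other 2 comparisons. Of the single-gene values of the 14 members under these alternatives, 115 kept the call and 95 lost it, and none changed sign. Other pseudocounts and filters kept each count within 1.5 times. The cause of these shifts was not tested.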
